A study of Mus musculus with 550 samples.

Results

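The cell cycle phase genes described here are 39 genes whose RNA rises and falls as a cell divides, 19 of them used in S phase and 20 in G2 and mitosis (G2/M). They were chosen by name and by no rule on measured values, but with earlier results of these data known. Their rows were read from a table of 55228 gene names in 486 of 550 single cells. The cells came from embryoid bodies (EBs), aggregates of mouse embryonic stem cells that begin to form germ layers once LIF, the factor that holds them undifferentiated, is withdrawn. The stem cells were of the E14 line, strain 129/Ola. They were either wild type (WT), Dnmt3a -/- (3AKO) or Dnmt3b -/- (3BKO), each mutant lacking 1 of the de novo DNA methyltransferases, and the EBs were sampled at day 3 and day 9. Per the study's methods each mutant was represented by independent clones and EBs of different wells were combined before dissociation. The labels give a cell's genotype, day and library batch but no clone or culture, so each genotype and day was 1 sample, its cells were not replicates, and no p-value is given.

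Kept cells had at least 50000 reads assigned to genes, at least 2000 genes with a read and at most 50% mitochondrial reads. They numbered 79 for WT at day 3, 83 and 80 for the day 3 cells labelled 3AKO and 3BKO, and 89, 88 and 67 for WT, 3AKO and 3BKO at day 9. Where 3 values for day 9 stand together, they are those of WT, 3AKO and 3BKO in this order. The last group kept 72.04% of its cells, whereas the other groups kept 86.8 to 97.8%. Reads per kept cell ran from 54720 to 1450202, with a median of 263902, and the reads summed over a group from 19713905 to 34821361. The deleted genes followed the labels at day 9, with Dnmt3a at 25.2 CPM (counts scaled to 1000000 reads of the group) in 3AKO and 166 in WT, and Dnmt3b at 16.4 in 3BKO and 167 in WT. At day 3 they did not in batch 2, where Dnmt3a stood at 335 CPM in cells labelled 3AKO and 12.8 in cells labelled 3BKO. Those cells were on plates 210 and 211, in this order. In batch 1 plate 210 held the cells labelled 3BKO (Dnmt3a at 587 CPM) and plate 211 those labelled 3AKO (25.8). The level of Dnmt3a thus went with the plate. Day 3 mutants are therefore named by label only, and their values over both batches may mix genotypes. Markers of pluripotent cells (5 genes) summed to 1724, 1098 and 3468 CPM at day 9, markers of mesoderm and endoderm (7 genes) to 53.2, 56.04 and 31.8, of neural ectoderm (5 genes) to 179, 159 and 168, and of fibroblasts (5 genes) to 12.7, 22.4 and 2.31. Of these, T, Mixl1, Sox1, Fabp7 and Col3a1 had no reads in 3BKO at day 9, Mixl1 none in WT and Kdr none in 3AKO. The sums hide members of opposite direction. By the limit given below, Sox2, Nanog and Zfp42 were higher in 3BKO than in WT and Fgf5 lower (-4.32 on the log2 scale). Eomes was higher (1.27) while 5 of the 7 mesoderm and endoderm genes were below WT. The median over the 5 neural genes was -2.70, with 1 of them read in enough cells.

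A dividing cell copies its DNA in S phase and separates the copies in mitosis, and each step is prepared by a wave of transcription. Genes for replication are switched on at the end of G1 when E2F factors are released from the pocket proteins, and the cyclin E kinases drive the release further. Genes for mitosis follow later, when the MuvB complex, with the activators B-MYB and FOXM1, acts at the short cell cycle genes homology region (CHR) of their promoters, often beside CCAAT boxes bound by NF-Y. Mouse embryonic stem cells are known for rapid division with short gap phases, which lengthen as they differentiate.

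The promoters of the 39 genes carried these letters unequally. RefSeq windows on GRCm38.p6, each 250 bases before to 50 after a gene's start, were matched for 16 S genes (18 promoters) and 17 G2/M genes (17 promoters). The CHR letters TTTGAA or TTCGAA, sought on both strands, were in 13 of the 17 G2/M promoters (76.5%), in 4 of the 18 S promoters (22.2%) and in 19.2% of all 32851 promoters. With the first base within 40 bases of the start they were in 12 G2/M promoters (70.6%) and 1 S promoter (5.56%), beside 4.54% of all promoters. The G2/M windows without them were those of Ccnb1, Birc5, Nusap1 and Cenpe. All 13 of these G2/M windows also held CCAAT, a pair that 7.52% of all promoters held. E2F letters (TTTCCCGC, TTTCGCGC, TTTGCCGC or TTTGGCGC) were in 6 of the 18 S promoters (33.3%), in that of Cdk1 alone among the G2/M genes (5.88%) and in 2.26% of all promoters. Restricting the background to genes read in all 6 groups gave 14.9% for CHR and 4.82% for E2F.

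The promoters of 4 G2/M genes are printed first, to show the letters in a kinase pair, a cyclin and a motor described in the results. Capitals mark CHR and CCAAT letters on either strand. Cdk1 and Plk1 encode kinases of mitosis, Ccnb2 encodes a partner of CDK1, and Kif23 a motor of cytokinesis. The CHR letters began 15 bases before the start in Cdk1, with another copy at 71 before, and 4, 30 and 2 bases after it in Ccnb2, Plk1 and Kif23.
Cdk1, chr10:69352863-69353162, minus strand: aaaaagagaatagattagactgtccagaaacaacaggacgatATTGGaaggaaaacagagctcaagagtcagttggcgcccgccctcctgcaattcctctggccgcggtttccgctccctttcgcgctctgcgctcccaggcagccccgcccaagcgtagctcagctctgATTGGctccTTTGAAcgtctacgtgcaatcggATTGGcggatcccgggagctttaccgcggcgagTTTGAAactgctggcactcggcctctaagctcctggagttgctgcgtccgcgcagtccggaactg
Ccnb2, chr9:70421505-70421804, minus strand: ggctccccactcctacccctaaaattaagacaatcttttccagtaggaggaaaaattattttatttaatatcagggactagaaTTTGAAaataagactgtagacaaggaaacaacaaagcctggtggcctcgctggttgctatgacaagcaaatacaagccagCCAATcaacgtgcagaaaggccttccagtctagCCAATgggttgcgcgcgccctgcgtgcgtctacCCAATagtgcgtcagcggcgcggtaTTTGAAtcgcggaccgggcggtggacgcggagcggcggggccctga
Plk1, chr7:122159185-122159484, plus strand: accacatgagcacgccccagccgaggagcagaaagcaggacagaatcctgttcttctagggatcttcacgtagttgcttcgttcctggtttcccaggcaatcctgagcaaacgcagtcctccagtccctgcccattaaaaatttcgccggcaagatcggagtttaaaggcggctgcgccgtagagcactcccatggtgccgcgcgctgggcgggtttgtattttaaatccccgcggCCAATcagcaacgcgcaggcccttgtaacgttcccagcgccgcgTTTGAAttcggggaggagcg
Kif23, chr9:61946750-61947049, minus strand: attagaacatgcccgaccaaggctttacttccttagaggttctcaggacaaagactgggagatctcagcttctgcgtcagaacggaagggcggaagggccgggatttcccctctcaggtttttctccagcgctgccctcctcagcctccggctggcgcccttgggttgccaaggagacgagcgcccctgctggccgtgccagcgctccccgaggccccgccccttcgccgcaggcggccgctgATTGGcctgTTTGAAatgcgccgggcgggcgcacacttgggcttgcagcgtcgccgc

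The S genes are shown by Mcm5 and Mcm6, subunits of the replicative helicase, and by Cdc6, which loads that helicase onto origins; here capitals mark the E2F letters on either strand. In Mcm5 and in Mcm6 sites of opposite strand overlap and form a single run of capitals, and Mcm6 holds another site nearer the start. A match of letters is a description of the sequence, and binding was not measured in these cells.
Mcm5, chr8:75109259-75109558, plus strand: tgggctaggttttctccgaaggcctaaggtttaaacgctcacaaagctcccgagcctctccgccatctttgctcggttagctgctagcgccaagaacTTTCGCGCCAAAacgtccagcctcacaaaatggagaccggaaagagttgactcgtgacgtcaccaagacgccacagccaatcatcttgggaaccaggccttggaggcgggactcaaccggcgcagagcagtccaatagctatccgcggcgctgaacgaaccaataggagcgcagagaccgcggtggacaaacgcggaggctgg
Mcm6, chr1:128359656-128359955, minus strand: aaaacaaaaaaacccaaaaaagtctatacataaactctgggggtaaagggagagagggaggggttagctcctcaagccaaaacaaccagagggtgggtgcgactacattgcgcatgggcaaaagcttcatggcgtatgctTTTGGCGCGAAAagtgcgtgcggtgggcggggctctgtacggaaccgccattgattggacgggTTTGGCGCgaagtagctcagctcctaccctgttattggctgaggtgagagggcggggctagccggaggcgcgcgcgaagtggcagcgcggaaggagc
Cdc6, chr11:98907901-98908200, plus strand: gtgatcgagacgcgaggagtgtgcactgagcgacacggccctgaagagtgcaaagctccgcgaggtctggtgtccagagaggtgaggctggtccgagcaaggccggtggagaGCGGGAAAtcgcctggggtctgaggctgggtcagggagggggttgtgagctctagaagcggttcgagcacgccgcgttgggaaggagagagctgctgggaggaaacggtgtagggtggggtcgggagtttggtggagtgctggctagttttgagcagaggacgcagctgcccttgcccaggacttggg

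**Figure D1:**
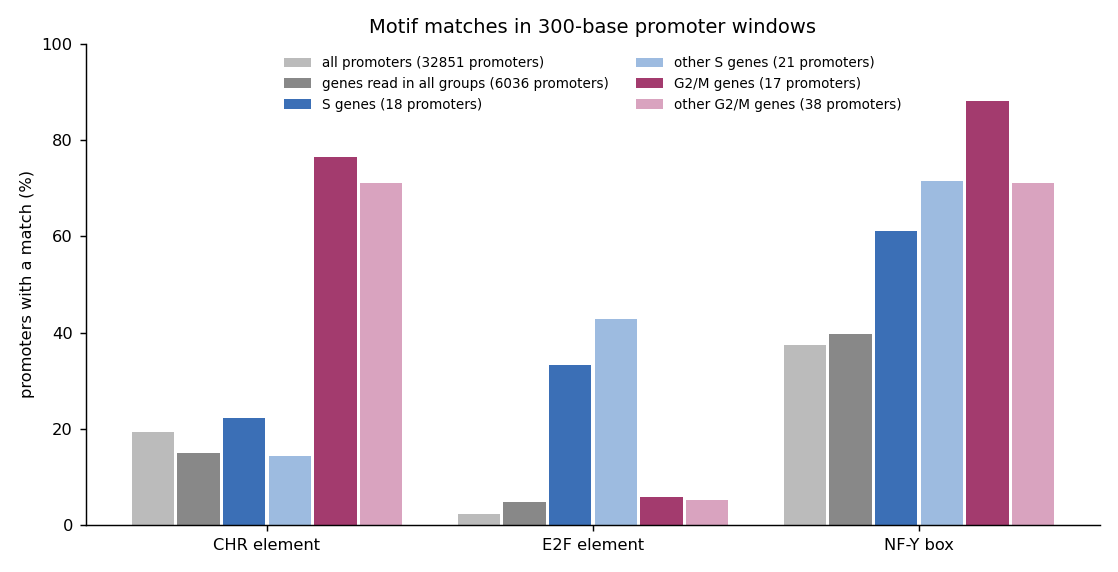
Percent of promoters (vertical axis) holding CHR, E2F or CCAAT letters in the member lists, in other genes of each phase and in the background sets. The G2/M genes stand at 76.5% for CHR against 19.2% of all promoters, and the S genes at 33.3% for E2F against 2.26%.

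All 39 genes were read in at least 20% of the cells of some group, and their levels spanned a wide range. Per kilobase of exon, Cdc20, the activator of the anaphase-promoting complex, had the highest level in WT at day 9 (213 CPM per kb). It was followed by Pcna, the sliding clamp of DNA polymerases (207 CPM per kb), Mcm6 (176), Ccnb2 (172) and Rrm2, the S-phase subunit of ribonucleotide reductase (164). The lowest were Fen1, a flap endonuclease (3.95 CPM per kb), Ccne2, a cyclin E (5.36), and Cenpf, a kinetochore protein (7.14). Exons of Cdc20 overlap those of Elovl1, exons of Fen1 those of Tmem258 and exons of Ccne2 those of Ints8, all on the opposite strand. Pcna and Ccnb2 have named pseudogenes, and reads that mapped to several places were left out of the counts. The levels per kilobase of these genes may therefore depend on how such reads were counted, which was not tested. Together the S genes took 0.566% and the G2/M genes 0.391% of all reads in WT at day 9.

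Single cells were then compared, since the level of a phase gene in a group depends both on how many cells are in that phase and on how much RNA each holds, which a sum of reads cannot tell apart. Each cell was thinned to 50000 reads, so that 1 read stood for 20 CPM, and a phase score was taken as the mean of log2(CPM + 1) over the 19 or the 20 genes. The members behaved as 2 lists. Within a library batch of a group, the score of a G2/M gene's own list without that gene followed it across cells with a median Spearman rho of 0.60 over the 20 genes (mean of 12 sets of cells), led by Ube2c (0.77), Ccnb1 and Plk1 (0.76), with Bub1 lowest (0.34). For the S genes the median was 0.37, led by Rrm2 (0.57), Cdc6 (0.54) and Pcna (0.51), with Fen1 lowest (0.24). All 39 genes followed their own list more closely than the other list, for which the medians were 0.10 and 0.01. Genes outside the lists that followed the G2/M score most closely were Kpna2 (0.68), Cenpa, Arl6ip1 and Ckap2l (0.62). Those nearest the S score were Pclaf (0.45) and Pcna-ps2 (0.40), a pseudogene of Pcna whose reads may not be told apart from those of Pcna, whereas the median over 5990 genes was 0.04 for G2/M and 0.05 for S. These coefficients describe cells that share a library and carry no test.

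The S score fell in a narrower range than the G2/M score and was lower at day 9. Its median over cells was 7.15 in WT at day 3 and 6.67, 6.39 and 5.95 at day 9. Cells at or above 7.30, the upper quartile of all kept cells, were called S-high. They made up 32.9% of WT cells at day 3 while at day 9 WT had 25.8% (exact 95% interval 17.1 to 36.2), 3AKO 14.8% (8.11 to 23.9) and 3BKO 13.4% (6.33 to 23.97). The difference from WT at day 9 was -11.1 percentage points in 3AKO (-23.4 to 1.57) and -12.4 in 3BKO (-25.0 to 1.26). It was negative in batch 1 (-13.6 and -10.9) and in batch 2 (-5.87 and -15.9), and neither interval excluded 0. Both comparisons share the WT cells, and all such intervals cover counting error only, over cells of 1 sample. The cut was close to many cells, with 106 of the 486 within 0.25 of it.

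The G2/M score separated the groups differently. Its median was 6.17 in WT at day 3, where the middle of the cells lay between 5.32 and 6.94, and 5.36 in WT at day 9, where they lay between 3.11 and 6.83. In 3AKO at day 9 the median was 5.73 (quartiles 4.30 and 6.91), and in 3BKO it was 3.76 (2.08 and 6.82). The upper quartile thus stayed between 6.82 and 6.94 in these groups while the lower one ranged from 2.08 to 5.32. Cells at or above the cut of 7.09 made up 22.5, 22.7 and 20.9% of the day 9 groups. The differences from WT were 0.255 points in 3AKO (-12.8 to 13.3) and -1.58 in 3BKO (-15.1 to 12.7), so that a difference of up to about these bounds was not detectable with this many cells. These values depended on how a high cell was defined, as with reads of 60% of the list in place of the score the differences were 17.8 points in 3AKO and -15.2 in 3BKO.

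**Figure D2:**
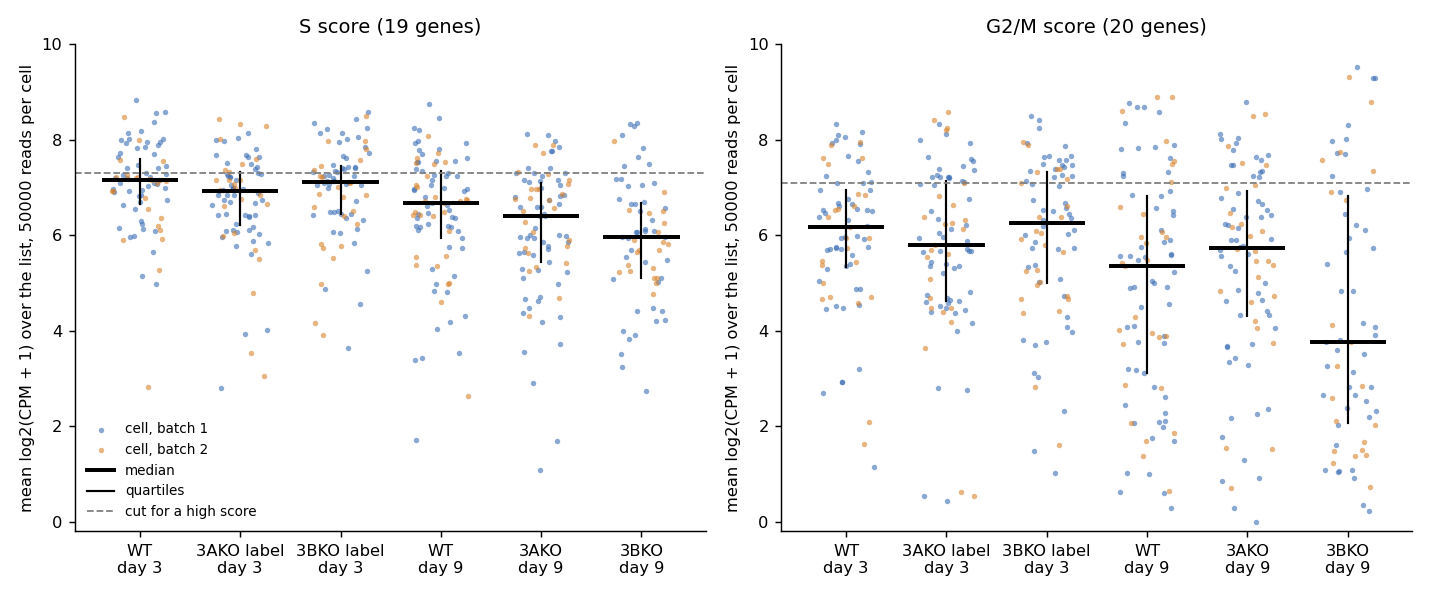
S and G2/M score of every kept cell (mean log2(CPM + 1) of thinned reads, vertical axis) by group, coloured by library batch, with the median, the quartiles and the dashed cut for a high score. The G2/M scores of 3BKO at day 9 have their median at 3.76 against 5.36 in WT, and the shares above the cut are 20.9 and 22.5%.

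The lower part of the G2/M distribution held the contrast between the mutants. Cells with reads of fewer than 10 of the 20 G2/M genes, after thinning, numbered 5 of 79 in WT at day 3 (6.33%), 24 of 89 in WT at day 9 (26.97%), 13 of 88 in 3AKO (14.8%) and 27 of 67 in 3BKO (40.3%). The median cell had reads of 18 of the 20 genes in WT at day 3, 15 in WT at day 9, 16 in 3AKO and 11 in 3BKO. The share of low cells was 25.5 points higher in 3BKO than in 3AKO (10.6 to 39.9), by 18.4 in batch 1 and 41.3 in batch 2. Against WT it was 13.3 points higher in 3BKO (-2.44 to 28.8; 20.8, from 5.74 to 35.5, without thinning) and 12.2 points lower in 3AKO (the difference ran from -24.6 to 0.555). In WT it was 20.6 points higher at day 9 than at day 3 (8.81 to 31.9). Cells with reads of fewer than 10 of the 19 S genes made up 6.74, 4.55 and 5.97% of the day 9 groups, a limit that depends on how often the genes of a list are read and gives no order between the lists. Within each group the G2/M score also moved with the number of genes read in a cell (rho 0.48 to 0.73), and the median numbers of genes were 5652, 5903.5 and 5879 in WT, 3AKO and 3BKO at day 9 and 7267 in WT at day 3. The part of this, and of the marker levels given above, in the result was not tested.

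**Figure D3:**
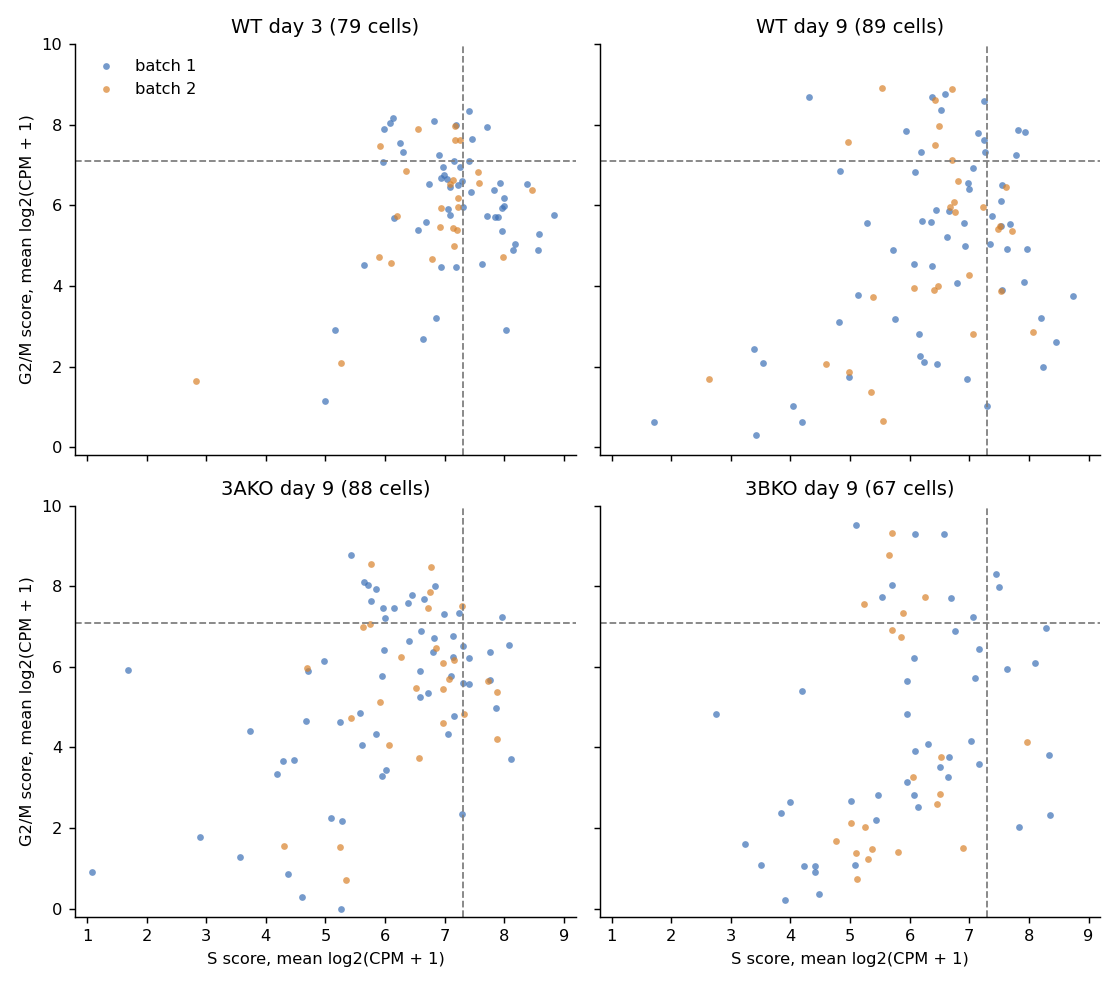
S score (horizontal) against G2/M score (vertical), both in mean log2(CPM + 1), of each cell in WT at day 3 and in WT, 3AKO and 3BKO at day 9, with dashed lines at the cuts. Cells below both cuts make up 49.4, 55.1, 63.6 and 68.7% of the 4 groups in this order, which follows in large part from the shares above each cut.

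Across cells the 2 scores had a rho between -0.06 and 0.02 in the 3 groups at day 3 (-0.19 to 0.35 within batches), and at day 9 of 0.23 in WT (89 cells), 0.32 in 3AKO (88) and 0.44 in 3BKO (67), with 0.16 to 0.46 within batches. Like the G2/M score, the S score moved with the number of genes read in a cell at day 9. Its rho with that number was 0.37 in WT, 0.30 in 3AKO and 0.52 in 3BKO, against 0.01 to 0.17 in the day 3 groups. The part of gene number in the rho between the scores was not tested. Cells high for both were few, from 1.14 to 6.25% of a group. Cells high for neither made up 55.1, 63.6 and 68.7% of the day 9 groups, against 49.4% of WT cells at day 3. These joint shares follow in large part from the separate shares of S-high and G2/M-high cells and add no further result.

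The G2/M genes were therefore followed gene by gene for how unevenly their reads were spread over cells, by the coefficient of variation (CV) of CPM in thinned cells. At day 9 the CV was higher in 3BKO than in WT for 19 of the 20 G2/M genes (95%, against 53.5% of 7820 genes read in these groups), and Bub1b was the exception. It was higher than in 3AKO for 19 of 20 as well (against 59.2%). In 3AKO it was higher than in WT for Aurkb alone, 1 of 20 (5%, against 42.2%). From day 3 to day 9 in WT it was higher for all 20 G2/M genes and 18 of the 19 S genes, but it was also higher for 82.3% of all genes. The median CV of the G2/M genes was 0.998 in WT at day 3 and 1.34, 1.18 and 1.76 at day 9. For the S genes the same medians were 0.691, 0.852, 0.870 and 0.968, and 15 of 19 had a higher CV in 3BKO than in WT. The 20 G2/M genes moved together over the same cells (median rho 0.60 with their own list), so their counts are not 20 separate observations. Cells without a read raise a CV as well, so it is not a measure apart from the low cells above.

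Ube2c, the ubiquitin-conjugating enzyme of the anaphase-promoting complex, shows this spread. Its quartiles over cells were 40, 120 and 440 CPM in WT at day 9, 75, 240 and 565 in 3AKO and 0, 60 and 330 in 3BKO, with CVs of 1.41 in WT and 1.99 in 3BKO. Ccnb1, the main cyclin of the CDK1 kinase, had quartiles of 120, 260 and 560 CPM in WT and 30, 160 and 430 in 3BKO. The summed level of Ccnb1 was 384 CPM in WT and 460 in 3BKO, or 405 without the deepest 3BKO cell described next, and that of Ube2c 324 and 417, or 376 without it. The 25% of cells with the highest level held 82.5% of a G2/M gene's thinned CPM in 3BKO (median over the 20 genes), 72.2% in WT and 66.1% in 3AKO at day 9, and 59.5% in WT at day 3. Shares of cells with a read of a G2/M gene were lower in 3BKO than in WT for 17 of 20 genes, beside 52.9% of 7820 genes. Yet 14 of the 20 were at a higher summed level, or 12 without the deepest 3BKO cell, beside 45.2% of all genes. No order is read from such shares of cells.

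A single cell of 3BKO at day 9 had a large part in the summed levels. It belonged to batch 2, was the deepest of all kept cells (1450202 reads, 4.79% of its group's reads) and held 20.01% of the group's G2/M reads, with the highest count of its group for 15 of the 20 G2/M genes. In WT at day 9 no cell led more than 9 of the 20, and the leading one held 6.85%. That cell accounted for 47.3% of the Kif23 reads, 39.9% of Cenpf, 38% of Aurkb and 32.8% of Top2a in 3BKO. Summed levels of 3BKO are therefore also given without it where it changed a call or a direction, and for the counts and medians of the 39 genes. The spread over cells and the scores, which weigh each cell equally, moved little: 18 of the 20 G2/M genes still had a higher CV than in WT, and the difference of median G2/M scores was -1.69 in place of -1.60.

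Summed levels were compared between groups as the difference of log2(CPM + 1). A gene is named as higher or lower where it differed at least 1.5-fold (0.58 on the log2 scale) over both batches and had the same sign in each, among genes read in at least 20% of cells of either group in each batch. By this rule 6 of the 39 genes differed between 3AKO and WT at day 9, all lower, 4 of them S and 2 G2/M genes, while 20.8% of 9201 genes did (6.96% higher and 13.8% lower). Between 3BKO and WT 10 genes differed, 3 higher and 7 lower, while 35.5% of 9235 genes did (14% higher and 21.5% lower). Without the deepest 3BKO cell 11 genes differed, 1 higher and 10 lower, 8 of them among the first 10, against 34.8% of 9324 genes (13.8% higher and 21% lower). The share of the 39 genes past the limit was thus under the background for 3AKO and close to it or under it for 3BKO. At 2-fold 0 of the 39 genes passed in 3AKO (6.97% of all genes) and 2 in 3BKO (16.7%), Gins2 and Kif23. Without the deepest cell 3 passed, Gins2, Ccnb2 and Aurkb (16.4% of all genes). Both mutants were set against the same WT cells. Directly compared, 3BKO and 3AKO differed at 1.5-fold in 10 of the 39 genes, 7 higher and 3 lower in 3BKO, while 40.1% of 9152 genes did (19.7% higher and 20.5% lower). Without the deepest cell 10 genes again differed, 4 higher and 6 lower, 6 of them among the first 10, against 39.4% of 9256 genes (19.7% in each direction).

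For the S genes the median difference from WT was -0.22 in 3AKO (-0.27 in batch 1 and 0.01 in batch 2) and -0.43 in 3BKO (-0.18 and -0.44), beside -0.10 and -0.08 over all genes. The order of the mutants thus differed between the batches. Of the 19, 16 were below 0 in 3AKO and 17 in 3BKO, and 8 and 14 were so in both batches. Of all genes 59.1 and 54.8% were below 0, and 32.8 and 36.3% in both batches. Without the deepest cell the S median in 3BKO was -0.38. Together the S genes took 0.566% of all reads in WT at day 9, 0.495% in 3AKO and 0.469% in 3BKO, in batch 1 0.594, 0.489 and 0.541% and in batch 2 0.514, 0.504 and 0.407%.

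**Figure D4:**
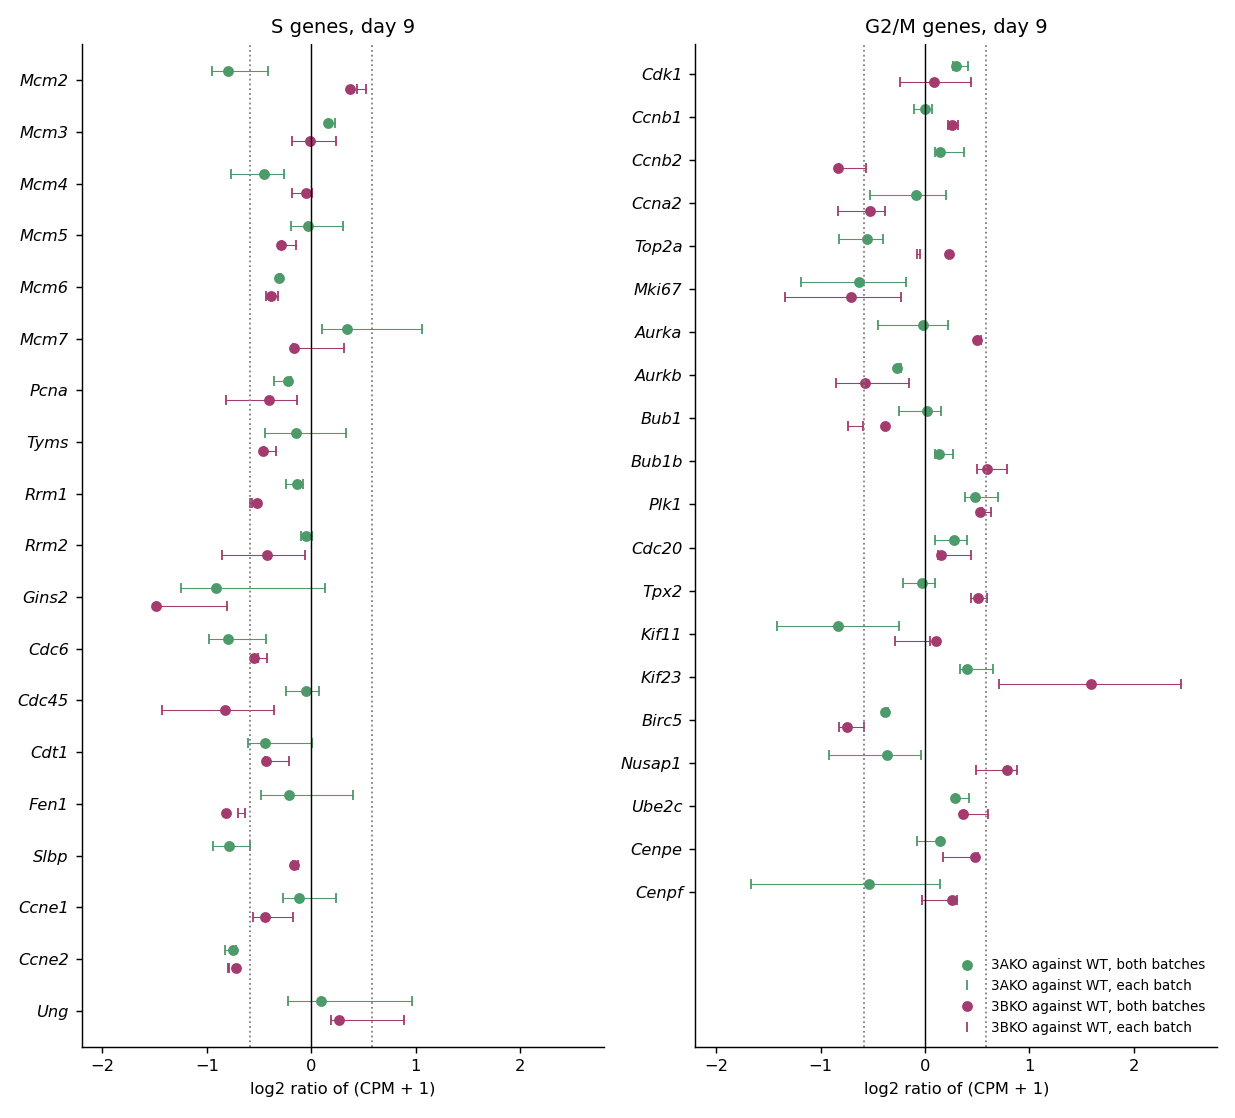
Difference from WT at day 9 in log2(CPM + 1) of each of the 39 genes in 3AKO and 3BKO (horizontal axis). Dots are both batches together, ticks each batch, and dotted lines mark 1.5-fold. Gins2 lies farthest left in 3BKO (-1.49) and Kif23 farthest right (1.59, or 0.74 without the deepest cell).

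Among the genes that license origins, Mcm2 separated the mutants. Its level was 562 CPM in WT at day 3 and 346, 199 and 448 CPM at day 9, and its cell quartiles at day 9 were 140, 260 and 540 CPM for WT cells, 60, 180 and 285 for 3AKO and 220, 420 and 640 for 3BKO. It was lower in 3AKO than in WT (-0.79, by batch -0.95 and -0.41 in batches 1 and 2) and was 0.37 above WT in 3BKO (0.44 and 0.53), short of the limit. The other helicase subunits stayed within the limit in both mutants, with differences in 3AKO of 0.16 for Mcm3, -0.45 for Mcm4, -0.03 for Mcm5, -0.31 for Mcm6 and 0.35 for Mcm7. In 3BKO they were -0.01, -0.05, -0.29, -0.38 and -0.17 in the same order. The 6 subunits of the ring did not share a direction in either mutant. Cdc6, the loader, stood at 149, 85.3 and 101 CPM at day 9 and was lower in 3AKO (-0.80, by batch -0.98 and -0.43).

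Gins2 and Cdc45 join the MCM ring to form the active helicase, and both were lower in 3BKO. Gins2 was read at 126 CPM in WT at day 3, and at 158, 82.99 and 55.4 CPM at day 9. Its difference from WT was -1.49 in 3BKO (-1.49 and -0.81) and -0.92 in 3AKO, where the batches disagreed in sign (-1.25 and 0.13). A read of Gins2 was found in 83.1% of thinned cells in WT, 77.3% in 3AKO and 58.2% in 3BKO. Cdc45 stood at 151, 146 and 84.4 CPM, a difference of -0.83 in 3BKO (-0.36 and -1.43). The exons of Gins2 overlap those of Gse1 on the opposite strand and those of Cdc45 overlap Ufd1, and no strand option is listed for the counting, so reads of such pairs cannot be told apart.

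Of the genes of the replication fork, nucleotide supply and histone messages, Fen1 passed the limit in 3BKO and Slbp in 3AKO. Pcna had 743 CPM in WT at day 3 and 497, 426 and 376 CPM at day 9, with differences of -0.22 in 3AKO and -0.40 in 3BKO (-0.13 and -0.82 by batch), neither past the limit. Rrm2 had 454, 440 and 338 CPM at day 9, with differences of -0.05 and -0.43. Fen1, at 9.56 CPM in WT and 4.99 in 3BKO, was lower in 3BKO (-0.82, by batch -0.70 and -0.64), though few reads support it and its exons overlap Tmem258. Slbp, which binds the stem-loop of histone messages, was lower in 3AKO (298 CPM in WT and 172 in 3AKO; -0.79, with -0.94 and -0.58 by batch) and stood at 266 CPM in 3BKO.

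The cyclins E differed in level more than in direction. Ccne2 was lower in both mutants, at 18.7, 10.7 and 10.99 CPM, with differences of -0.75 (-0.83 and -0.72) and -0.72 (-0.79 and -0.80). It was read in 30.3% of thinned WT cells, and 1 cell held 31.2% of its reads in 3BKO. Per kilobase of exon its paralogue Ccne1 stood higher, at 70.03 CPM per kb in WT against 5.36, though exons of Ccne2 overlap those of Ints8 on the opposite strand. Ccne1 had 186, 171 and 137 CPM, with differences of -0.12 and -0.44 that did not pass the limit.

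The G2/M genes as a list did not keep 1 direction. Their median difference from WT was -0.01 in 3AKO (0.10 and -0.23 by batch), with 9 of 20 above 0. In 3BKO it was 0.24 (0.31 and 0.07), with 14 of 20 above 0. Without the deepest cell it was 0.08, with 12 above 0 and a batch 2 median of -0.22. Of all genes 40.9% were above 0 in 3AKO and 45.2% in 3BKO, with medians of -0.10 and -0.08. The G2/M genes took 0.391% of all reads in WT at day 9, 0.388% in 3AKO and 0.429% in 3BKO, or 0.360% in 3BKO without that cell. The order of 3BKO and WT in this share over both batches thus depended on 1 cell, which was in batch 2. In batch 1 the share was 0.373% in WT and 0.411% in 3BKO, and in batch 2 with that cell 0.426 and 0.445%.

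Of the cyclins and their kinase, Ccnb2 differed most. Its level was 214 CPM in WT at day 3, and 263, 290.1 and 147 CPM at day 9, and the quartiles over cells at day 9 were 20, 160 and 420 CPM for WT, 35, 230 and 440 for 3AKO and 0, 0 and 190 for 3BKO. It was lower in 3BKO (-0.83, by batch -0.82 and -0.57, and -1.09 without the deepest cell) and 0.14 above WT in 3AKO (0.09 and 0.38). Cdk1, with differences of 0.30 in 3AKO and 0.09 in 3BKO, and Ccnb1, with -0.00 and 0.26 (0.07 without the deepest cell), stayed within the limit in both mutants. Ccna2, the cyclin of late S phase and G2, stood at 272, 255 and 188 CPM, a difference of -0.53 in 3BKO that was -0.90 without the deepest cell and then past the limit.

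The chromosomal passenger genes and the spindle checkpoint genes split. Birc5, which encodes survivin and targets the Aurora B kinase, was lower in 3BKO, at 262, 201 and 156 CPM (-0.75, by batch -0.58 and -0.82, and -0.99 without the deepest cell). Aurkb itself stood at 129, 107 and 86.2 CPM, and its difference of -0.58 in 3BKO, just short of the limit, became -1.19 without that cell. Bub1 behaved alike, with -0.38 and then -0.69, and both then passed the limit. Bub1b, which encodes the checkpoint kinase BUBR1, was higher in 3BKO, at 85.1, 93.4 and 129 CPM (0.59, by batch 0.78 and 0.50), but not without that cell (0.44). Plk1 stood at 129, 180 and 186 CPM, which is 0.48 above WT in 3AKO and 0.52 in 3BKO, and Cdc20 was 0.27 and 0.16 above, all within the limit. Without that cell the 3BKO values were 0.31 for Plk1 and 0.08 for Cdc20.

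Of the spindle genes Kif23 passed the limit in 3BKO with and without the deepest cell. It was read at 67.1 CPM in WT at day 3, and at 60.3, 79.7 and 184 CPM at day 9. It was higher in 3BKO (1.59, by batch 0.71 and 2.45), and without the deepest cell by 0.74 (0.71 and 1.03), still past the limit. Nusap1, a microtubule-binding protein of the spindle, was higher in 3BKO with the deepest cell (0.78; 78.8 CPM in WT and 137 in 3BKO) and not without it (0.46). Its difference in 3AKO was -0.36 (-0.04 and -0.92). Kif11, the motor that pushes the spindle poles apart, was lower in 3AKO (-0.83, by batch -0.25 and -1.41), at 114, 63.6 and 122 CPM. Top2a, which untangles DNA before it is separated, had 398, 270 and 466 CPM, and its differences of -0.56 and 0.23 were within the limit, the latter being -0.27 without the deepest cell. Mki67, the proliferation marker Ki-67, was lower in both mutants, at 84.2, 54.1 and 50.98 CPM, by -0.63 in 3AKO (by batch -0.18 and -1.19) and -0.71 in 3BKO (by batch -0.23 and -1.34).

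Between day 3 and day 9 in WT the same rule named 6 of the 39 genes, while 36.8% of 10162 genes passed (25.1% higher and 11.7% lower). At 2-fold 1 gene passed, Ccne1, while 15.4% of all genes did. The median over all genes was itself 0.19, so values are read against it. Higher at day 9 were Slbp (175 to 298 CPM; 0.76), Birc5 (162 to 262; 0.69) and Aurka, the kinase of the spindle poles (115 to 176; 0.60). Lower were Ccne1 (384 to 186 CPM; -1.04), Mcm2 (562 to 346; -0.70) and Ccna2 (431 to 272; -0.66). The list medians were -0.18 for the S genes (0.00 and -0.08 by batch) and 0.09 for the G2/M genes (0.03 and 0.17), both under the median of all genes. The S genes took 0.638% of reads at day 3 and 0.566% at day 9, and the G2/M genes 0.372 and 0.391%.

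At day 3 few of the genes differed from WT under either label. For cells labelled 3AKO, Ccne2 (-1.15) and Mcm4 (-0.62) were lower, 2 of 39 while 14.6% of genes passed. For cells labelled 3BKO Cenpf was higher (0.77), 1 of 39 while 14.1% passed. From day 3 to day 9, 5 of 39 genes passed for cells labelled 3AKO (32.1% of all genes) and 15 of 39 for cells labelled 3BKO (41.8%), of which 12 passed without the deepest cell, again among 15 in all (42%). Ccne1 was among the lower ones under both labels (-0.84 and -1.07). S-high cells went from 37.5 to 13.4% under the 3BKO label, a difference of -24.1 points (-37.6 to -9.13). It was -25.2 in batch 1 and -22.2 in batch 2, where the day 3 label is in doubt, so the value over both batches may mix genotypes. Under the 3AKO label the difference was -10.5 points (-23.2 to 2.25), and in WT it was -7.07 (-21.5 to 7.45).

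The other genes of the cycle, from lists of known regulators and of further phase genes, are given for day 9, where the background is 20.8% of all genes in 3AKO (6.96% higher and 13.8% lower) and 35.5% in 3BKO (14% higher and 21.5% lower). Of 28 other S genes, 9 were lower and 0 higher in 3BKO, with a median of -0.45, and 3 were lower and 1 higher in 3AKO, with a median of -0.24. Of 38 other G2/M genes, 8 were higher and 4 lower in 3BKO, with a median of 0.09 (without the deepest cell 6 and 6, and 0.02), and 3 were lower and 0 higher in 3AKO (-0.19). Among 7 G1 cyclins and kinases 5 were lower in 3BKO. Cdk4, the cyclin D kinase, had 1395, 1419 and 688 CPM, a difference of -1.02 in 3BKO (by batch -0.81 and -0.96). From WT to 3BKO Ccnd2 went from 86.3 to 12.7 (-2.67), Cdk6 from 24.9 to 2.94 (-2.72), Ccnd1 from 107 to 53.9 (-0.98) and Cdc25a from 22.6 to 10.2 (-1.08). In 3AKO Cdc25a (-0.88) and Cdk2 (-0.96) were lower.

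The inhibitors and activators of the 2 waves were read against the same background. Among 7 CDK inhibitors, 5 of them read in enough cells, Cdkn2b, which blocks CDK4 and CDK6, was higher in 3BKO (10.4, 10.9 and 49.99 CPM, a difference of 2.16, with 2.21 in both batches), as was Cdkn1b (6.92 to 17.3 CPM; 1.21), while Cdkn2d was lower (-0.80). In 3AKO 0 of the 7 passed. Of 8 E2F genes, 6 of them read in enough cells, 4 were lower in 3BKO, E2f1 (-0.67), E2f3 (-0.98), E2f5 (-0.61, not past the limit without the deepest cell) and the partner Tfdp1 (-0.72), the last also in 3AKO (-0.78). Of 10 genes of MuvB, its activators and NF-Y, Mybl2 (0.77; 168 CPM in WT and 288 in 3BKO) and Lin54 (0.70) were higher and Foxm1 (-1.87; 26.2 and 6.44 CPM) lower in 3BKO, and Lin52 (-1.33) lower in 3AKO. The 3 pocket protein genes were read in too few cells of 3BKO and WT to enter that count.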

How the data were processed

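Single EB cells were profiled by a full-length (Smart-seq2 type) protocol without molecular identifiers, so reads are not independent molecules and intervals cover counting error only. The authors checked and trimmed the reads (FastQC 0.11.2, Trim Galore 0.5.0), aligned them to the mouse genome with STAR 2.7.1a and counted them per gene with featureCounts 1.6.1, and they deposited the values as raw counts in 1 table, of which 26 columns of other samples were not used. Per the study's methods the counting summed exons by gene name and left out reads that mapped to several places, and no strand option is listed.

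Counts of kept cells were summed per group and batch, scaled to CPM and compared as log2(CPM + 1). Phase scores used cells thinned at random to 50000 reads (seed 1). Intervals are exact Clopper-Pearson intervals at 95%, and the interval of a difference combines both bounds. Exon lengths and overlaps came from GENCODE vM21 (GRCm38), which held 97.0% of the gene names, and promoters from RefSeq. Values named in the text were those of members past the fold limit, plus Pcna, Mcm2 to Mcm7, Ccne1, Ccne2, Rrm2, Cdk1, Ccnb1, Ccna2, Top2a, Mki67, Plk1 and Cdc20, and genes singled out after their values were seen for their spread over cells (Ube2c) or for a dependence on 1 cell (Aurkb, Bub1). The members and lists were chosen with earlier results of these data known, and the phase genes hold parts of lists in common use for scoring cells. Median score differences, counts of low cells, counts of higher CV and values without the deepest 3BKO cell were added after seeing the data. Alternatives covered cell filters, batches, normalizations (TMM of edgeR 4.0.16, median-ratio factors of DESeq2 1.42.0), pseudocounts of 0.1 and 10 CPM, thinning, score cuts and fold limits. Scripts ran in Python 3.11.15 (numpy 2.4.6, scipy 1.17.1, pandas 2.3.3, matplotlib 3.10.9) and R 4.3.3, and were tested on simulated data.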

Additional observations from a re-analysis of the deposited data

Results flagged for a closer look

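Among the 39 genes, 3 were flagged because their difference from WT at day 9 had opposite signs in the 2 mutants, in both batches. The share of all genes with such signs was not counted, so no excess is read from these 3. For Nusap1 the batch 1 level in 3AKO was close to that of WT. The difference between the mutants was not tested, since each group is 1 sample, and both contrasts share the WT cells. Mcm2 was lower in 3AKO (-0.79) and above WT in 3BKO (0.37), which puts 3BKO 1.16 above 3AKO on the log2 scale (1.39 in batch 1 and 0.94 in batch 2). Ccnb2 was above WT in 3AKO (0.14) and lower in 3BKO (-0.83), which gives a difference of -0.98 between 3BKO and 3AKO (-0.92 and -0.95). Nusap1 was below WT in 3AKO (-0.36) and above it in 3BKO (0.78), a difference of 1.15 (0.53 and 1.80). Without the deepest 3BKO cell the value of Nusap1 in 3BKO was 0.46, that of Mcm2 0.42 and that of Ccnb2 -1.09.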

How the results depend on the processing

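No paired analysis was possible because the cells carry no replicate numbers that are shared between groups and no test was run. Of 278 alternative values for the list medians, scores, shares and counts, 243 stayed close to the reported value, 32 moved by more and 3 reversed. Close means by less than the SD of the batch values for medians and scores, inside the interval for shares and within 1.5 times for counts. A change of sign was counted as reversed only for medians and scores whose batches had shared a sign and for shares whose interval excluded 0. Another 26 values took the other sign from reported values without such a direction. The reversed ones were the G2/M median of WT at day 9 against day 3, which went from 0.09 to -0.033 without mitochondrial genes and Gm42418 in the denominator, -0.071 with TMM and -0.11 with median-ratio factors, while the median of all genes went from 0.19 to 0.07, 0.03 and -0.0025. The S median of that contrast (-0.18) was -0.30, -0.34 and -0.38 under these, -0.29 with a stricter cell filter, 0.00046 and -0.077 in batch 1 and batch 2 alone, and -0.10 for both the mean of single-cell CPM and thinned cells. In batch 2 alone the S median of 3AKO was 0.0068 and the G2/M median of 3BKO 0.071, and in batch 1 alone the S median of 3BKO was -0.18. The G2/M median of 3AKO, -0.01, was 0.08 with TMM and 0.07 with median-ratio factors. With high cells defined by reads of 60% of the list, the G2/M-high difference was 17.8 points for 3AKO, -15.2 for 3BKO and -29.5 for WT at day 9 against day 3, and with the other genes of the phase the last was -14.0. Without a cell filter the 3BKO difference of median scores was -1.33 for S and -2.68 for G2/M, and that of cells low for S 23.5 points. With the other genes of each phase these were -1.09, -0.59 and 11.9, and for WT at day 9 against day 3 the S score differed by -0.75 and the low cells by 16.7 points. In batch 2 alone the G2/M score of 3BKO differed by -2.59. The number of genes with a higher CV in 3AKO than in WT was 7 of 19 S genes (main value 11) with 100000 reads per cell, and of the G2/M genes (main value 1) 3 with 100000 reads, 3 without each gene's highest cell, 5 in batch 1 and 3 in batch 2. At a limit of 2-fold 0 genes differed in 3AKO, 2 in 3BKO and 1 in WT between the days. None of 274 alternative values of the 22 gene differences past the 1.5-fold limit reversed. Those of each batch alone could not, since the limit asked for the same sign in each batch, nor could those with another pseudocount. The result is therefore not comparable with that for differences short of the limit. Of 531 alternatives to 43 such differences of named genes 55 changed sign, for 17 of the 43. One was Top2a in 3BKO, from 0.23 to -0.27 without the deepest cell. With 1 sample per group a difference between genotypes cannot be told apart from one between cultures or plates, and batches of 21 to 29 cells at day 9 leave wide counting intervals.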
